A study of Homo sapiens with 18 samples.

Results

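The first 3000000 bases of chromosome 19, at the tip of its short arm, held 784 merged regions of the 35619 in the whole genome. These regions are peak calls of anti-ETO or anti-Flag, used to profile the fusion protein AML1-ETO. Members were the peaks that start on chromosome 19 below that limit, in the 4 single-antibody lists and in 3 lists that the authors derived from them. A derived peak had been called by both antibodies, either in each condition (shared), in control cells only (control-unique) or after knockdown only (knockdown-unique). These were 229 of the 14264 peaks of anti-ETO in control cells, 492 of 23162 of anti-Flag in control cells, 446 of 22594 of anti-ETO after knockdown and 738 of 25961 of anti-Flag after knockdown. The shared list gave 173 of 8731 peaks, the control-unique list 15 of 3059 and the knockdown-unique list 167 of 4617. A merged region joins the peaks of the 4 single-antibody lists that overlap or touch. The stretch was chosen by its number of listed peaks, so its density and its balance of lists are a description and carry no test.

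Peaks were profiled by CUT&RUN, which releases DNA around an antibody-bound protein with a tethered nuclease. The cells were Kasumi-1, an established acute myeloid leukaemia line with the t(8;21) translocation, and all of them carried Flag-tagged AML1-ETO. The 18 libraries formed 6 groups of 3: control or miR-130a knockdown, each with anti-ETO, anti-Flag or mouse IgG. All groups were transduced, and GFP-positive cells were sorted on day 3 with 200000 cells per condition. The control construct, whether the line is a single clone and whether the libraries of a group come from separate cultures are not given in the sources used here. Each list stood for a whole group, with positions and no height, score or value per library. The depth behind a peak is therefore unknown, no spread between libraries can be given, and no IgG list was used here. A gene listed under knockdown and not under control differs between 2 lists, and this is not a measured change in binding.

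AML1-ETO joins the DNA-binding Runt domain of RUNX1 to most of RUNX1T1 (ETO), a corepressor. RUNX1 recognises a short core sequence together with its partner CBFB, and the fusion works in complexes with E proteins, which bind E-boxes, and with ETS factors. The anti-ETO antibody can also bind the ETO protein itself, whereas the anti-Flag antibody is directed at the tagged fusion only. The start of 19p is GC-rich and densely packed with genes, among them the neutrophil granule protease cluster AZU1, PRTN3, ELANE and CFD, which is switched on as myeloid cells become granulocyte precursors.

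Below are the 250 bases that precede the start site of 6 genes, chosen because the lists treat their starts differently. Of the 84 genes of the stretch with an annotated start site, PRTN3, R3HDM4 and NDUFS7 had it under a knockdown-unique peak. The other 18 genes, ELANE among them, had no annotated start and were not assessed. The starts of CFD and PRSS57, neighbours in function of PRTN3, and of KLF16, whose promoter lay in the widest region, were under shared peaks. Sequences are from RefSeq, build GRCh38.p14, and run 5′ to 3′ on the gene's strand. PRTN3 is chr19:840749-840998 (plus strand), PRSS57 chr19:695453-695702 (minus strand), CFD chr19:859414-859663 (plus strand), R3HDM4 chr19:913220-913469 (minus strand), NDUFS7 chr19:1383657-1383906 (plus strand) and KLF16 chr19:1863580-1863829 (minus strand). Capitals mark matches, on either strand, to the RUNX cores TGTGGT and TGCGGT, the E-box CAGGTG and the ETS core GGAAGT.
PRTN3: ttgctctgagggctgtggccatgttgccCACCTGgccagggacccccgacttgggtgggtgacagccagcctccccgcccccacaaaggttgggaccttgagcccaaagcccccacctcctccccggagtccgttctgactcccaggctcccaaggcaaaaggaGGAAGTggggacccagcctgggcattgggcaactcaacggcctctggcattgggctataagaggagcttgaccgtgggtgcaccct
PRSS57: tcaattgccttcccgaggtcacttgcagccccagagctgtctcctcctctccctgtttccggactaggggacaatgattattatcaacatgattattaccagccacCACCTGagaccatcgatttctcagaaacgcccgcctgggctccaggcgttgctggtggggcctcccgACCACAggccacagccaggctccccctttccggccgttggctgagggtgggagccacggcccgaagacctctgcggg
CFD: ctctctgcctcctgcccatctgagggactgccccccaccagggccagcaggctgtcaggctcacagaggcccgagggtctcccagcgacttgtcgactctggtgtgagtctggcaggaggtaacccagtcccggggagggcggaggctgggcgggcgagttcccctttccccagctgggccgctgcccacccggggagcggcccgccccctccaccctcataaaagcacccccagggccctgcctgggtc
R3HDM4: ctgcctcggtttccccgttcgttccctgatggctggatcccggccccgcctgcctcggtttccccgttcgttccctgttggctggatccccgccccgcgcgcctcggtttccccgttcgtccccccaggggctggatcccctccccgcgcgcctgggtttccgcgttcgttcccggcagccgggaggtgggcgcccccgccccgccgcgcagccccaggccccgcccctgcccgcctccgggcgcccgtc
NDUFS7: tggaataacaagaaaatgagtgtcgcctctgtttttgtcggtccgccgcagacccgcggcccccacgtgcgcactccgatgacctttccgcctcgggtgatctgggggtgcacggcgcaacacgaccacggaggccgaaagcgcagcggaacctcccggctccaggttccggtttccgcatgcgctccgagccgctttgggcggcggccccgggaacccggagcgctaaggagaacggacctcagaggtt
KLF16: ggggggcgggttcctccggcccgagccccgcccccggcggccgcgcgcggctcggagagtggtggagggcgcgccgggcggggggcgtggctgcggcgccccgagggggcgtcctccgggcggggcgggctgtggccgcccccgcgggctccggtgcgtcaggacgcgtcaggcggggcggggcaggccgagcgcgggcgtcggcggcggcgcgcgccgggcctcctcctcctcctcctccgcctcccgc

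In PRTN3 the capitals were CAGGTG, read on the reverse strand, and GGAAGT. In PRSS57 they were CAGGTG and TGTGGT, each on the reverse strand. The other 4 windows held none of these letters, which says nothing about binding. Anti-ETO in control cells covered 153 of the 250 PRTN3 bases, and control anti-Flag covered 0, although both knockdown lists covered all 250. For CFD all 4 lists covered all 250. The R3HDM4 window lay under no control peak, and 250 bases lay under knockdown anti-ETO and 124 under knockdown anti-Flag. In KLF16, 86.4% of the 250 bases were G or C.

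Among the 99 annotated start sites of the stretch, the same window held TGTGGT in 5.05% (9.36% of all 22199 promoters), TGCGGT in 8.08% (6.82%), CAGGTG in 17.2% (17.0%) and GGAAGT in 18.2% (20.5%). Either RUNX core occurred in 13.1% of the stretch and 15.6% of all promoters. For the 25 start sites of the stretch under peaks of all 4 lists, GGAAGT matched 9, or 36.0% (22.9% of all promoters under peaks of all 4 lists), and a RUNX core 4, or 16.0% (21.1%). Median GC content over 250 bases before to 50 after the start was 71.0% in the stretch and 62.3% in all promoters. Start sites of the stretch under a peak of any list and under none had median GC contents of 71.2% and 71.0%.

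Peaks covered 4.91% of the stretch in the control anti-ETO list and 9.39% in the control anti-Flag list. After knockdown the covered part was 10.5% for anti-ETO and 14.0% for anti-Flag, and the 4 lists together covered 17.8%. Cut into windows of 3 Mb, the genome held no window with more peaks in the control anti-ETO, control anti-Flag, knockdown anti-ETO, shared or knockdown-unique lists. A window of chromosome 17 that starts at 81 Mb held more knockdown anti-Flag peaks, 859 against 738. In the control-unique list the stretch ranked 8th, with 15 peaks against 27 in the fullest window.

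Both antibodies had longer lists after knockdown, in the stretch and elsewhere. Knockdown anti-ETO peaks outnumbered control anti-ETO peaks 1.95 to 1 in the stretch, 1.77 to 1 on the rest of chromosome 19 and 1.56 to 1 on the other chromosomes. For anti-Flag the ratios were 1.5, 1.41 and 1.08. By covered bases the anti-Flag ratios were 1.49, 1.18 and 0.94, so that on the other chromosomes the knockdown list had more peaks but covered less. Knockdown-unique peaks outnumbered control-unique peaks 11.1 to 1 in the stretch, 3.08 to 1 on the rest of the chromosome and 1.35 to 1 elsewhere. In the stretch they were 96 against 32 with the knockdown lists cut to the lengths of the control lists, and 87 against 17 with all 4 lists at one length. These ratios of list entries have no error across libraries.

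Peaks were unevenly spread along the stretch. None of the 4 lists had a peak in the first 343.8 kb, which hold OR4F17, an olfactory receptor gene, and PLPP2. The first region, chr19:343816-344098, was called by knockdown anti-Flag alone at MIER2. Between 500 and 750 kb there were 98 merged regions, between 750 and 1000 kb 120, and between 1000 and 1250 kb 107. In the last of these intervals control anti-ETO listed 46 peaks, control anti-Flag 90, knockdown anti-ETO 88 and knockdown anti-Flag 115. Further along, the 250-kb intervals held 52 to 92 regions each. The longest empty gaps between regions were 72.6 kb around SHC2, 42.3 kb around SPMAP2 and 41.4 kb from within CSNK1G2 to within BTBD2. At the 3000000 limit, the last region inside was 309 bp wide and the first outside, in TLE2, was 421 bp wide, and knockdown anti-Flag alone called each of them.

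Of the 102 protein-coding genes that end at or below the limit, 94 had a merged region in the body or within 1 kb (52.9% of all protein-coding genes did). The 8 without were OR4F17, PLPP2, LOC124904605, SPMAP2, SHC2, PLK5, LOC124904789 and DIRAS1. A shared peak lay at 73 genes (29.6% of all genes), a knockdown-unique peak at 65 (12.4%) and a control-unique peak at 14 (12.3%). As shares of the 102 genes these were 92.2% with a region, 71.6% with a shared, 63.7% with a knockdown-unique and 13.7% with a control-unique peak, and the gene groups below are read against them. On the rest of chromosome 19 the shares of genes were 70.9%, 43.8%, 25.9% and 13.7%, in the same order. Knockdown anti-ETO listed more peaks than control anti-ETO at 69 genes, the same number at 15 and fewer at 4, which were RNF126, KISS1R, GPX4 and TIMM13. For anti-Flag the counts were 65 genes with more, 10 with the same number and 19 with fewer. These gene counts were not made over all genes, so they describe the stretch only. In the whole series the knockdown list held 1.58 times the peaks of the control list for anti-ETO and 1.12 times for anti-Flag. A lower count did not always mean that less of the gene was covered. From control to knockdown anti-ETO, body coverage rose from 8.41% to 14.9% at RNF126 and from 38.6% to 65.4% at KISS1R. At GPX4 it rose from 30.2% to 44.97%, and at TIMM13 it was 0% in both. Anti-Flag genes with fewer peaks went both ways, as GAMT rose from 14.3% to 36.9% and GPX4 fell from 43.2% to 17.98%.

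**Figure D1:**
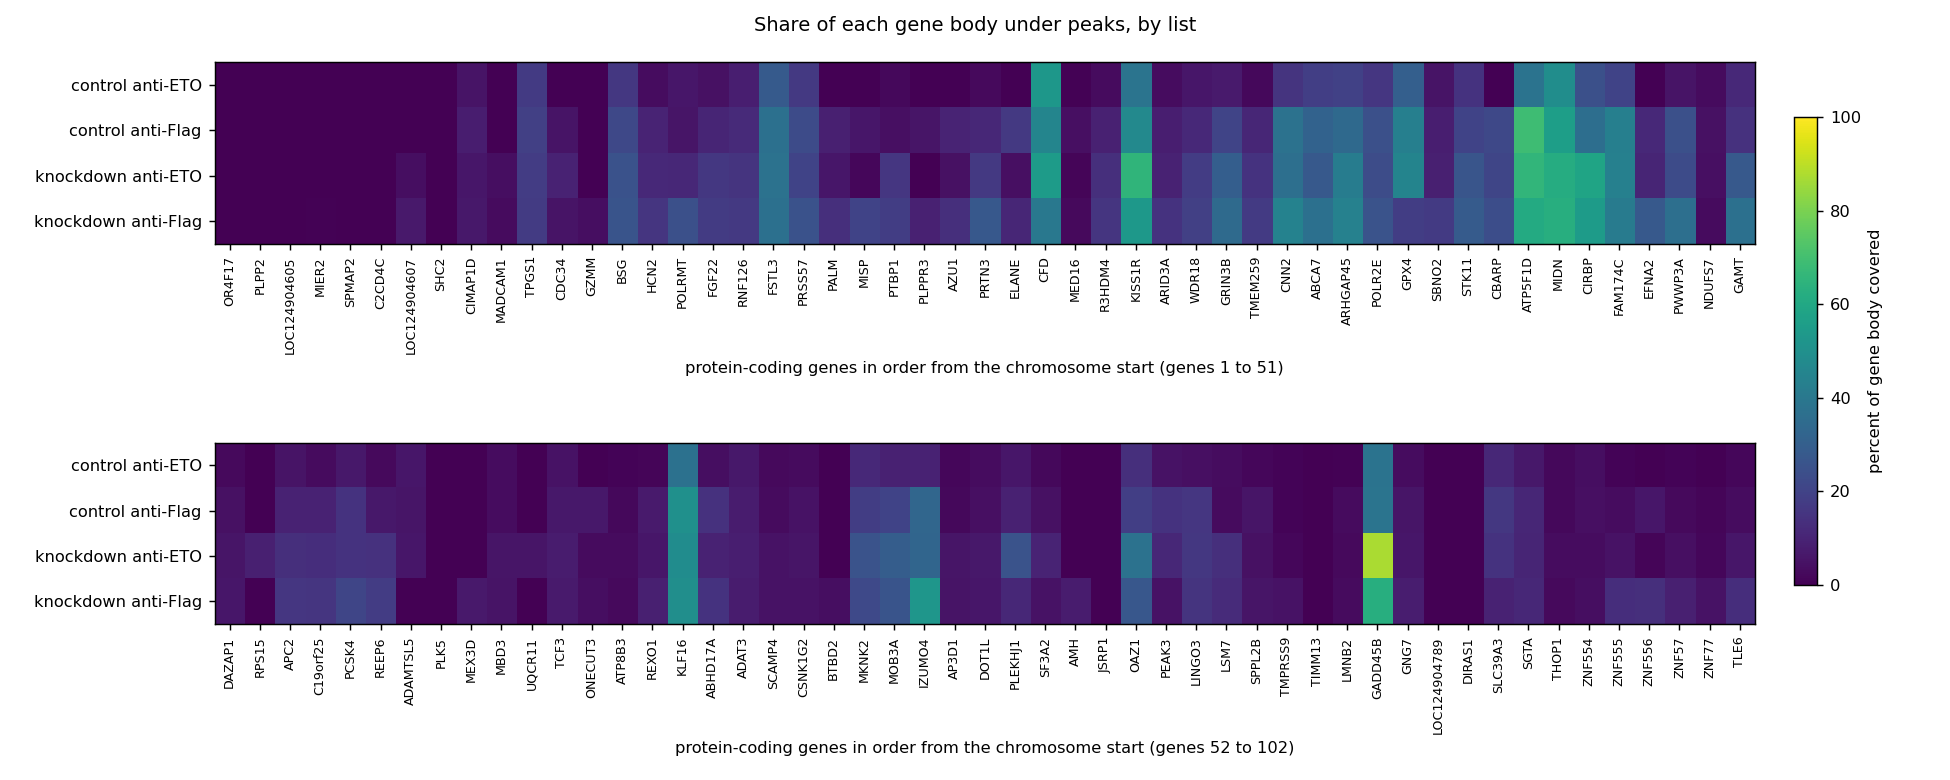
Percent of each gene body under peaks (colour, 0 to 100) for the 102 protein-coding genes in order from the chromosome start, with 1 row for each of the 4 lists. The brightest cell is GADD45B under knockdown anti-ETO (87.2%). The next are ATP5F1D under control anti-Flag (69.1%) and knockdown anti-ETO (66.0%), and KISS1R under knockdown anti-ETO (65.4%). Genes before CIMAP1D are almost empty.

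The serine protease genes, several of them side by side, differed in which lists held them. All 8 listed protease genes had a region (92.2% of the 102 genes did), 5 had a shared peak (71.6%), 7 a knockdown-unique peak (63.7%) and 1 a control-unique peak (13.7%). AZU1, which encodes the antimicrobial granule protein azurocidin, had 0 control anti-ETO, 1 control anti-Flag, 1 knockdown anti-ETO and 4 knockdown anti-Flag peaks. Its knockdown-unique peak, chr19:833007-834596, lay just downstream of the gene. ELANE, the neutrophil elastase gene, had 0, 3, 2 and 3 peaks in the same order, and its 2 knockdown-unique peaks lay at its 5′ side (chr19:851802-852459) and past its end (chr19:856969-857453). Control anti-Flag had called a peak at each of these 3 positions, and control anti-ETO had called none.

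PRTN3 encodes proteinase 3, a granule protease, and lies between AZU1 and ELANE. It had 2, 5, 6 and 7 peaks in control anti-ETO, control anti-Flag, knockdown anti-ETO and knockdown anti-Flag. Its shared peak (chr19:843098-843578) lay inside the gene, and 4 further peaks were knockdown-unique. The knockdown-unique peak over its start, chr19:839438-841104, also had control calls from both antibodies, anti-ETO at chr19:840576-840901 and anti-Flag at chr19:840191-840612. These control peaks overlapped each other by 37 bp, under the 100 bp that rebuilds the authors' derived lists in the stretch. With an overlap of 1 bp the peak over the PRTN3 start counted as shared.

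CFD encodes complement factor D, a serine protease of the alternative pathway, and closes the cluster. It had 3, 5, 4 and 3 peaks and 2 shared peaks, the first of which spans its start (chr19:858391-861075, 2685 bp). Control anti-ETO covered 52.9% of the CFD body, control anti-Flag 45.7%, knockdown anti-ETO 54.7% and knockdown anti-Flag 40.0%. Each antibody thus covered a similar part of CFD in both conditions, and the gene also had a control-unique peak (chr19:862552-862866) and a knockdown-unique peak. PRSS57, another neutrophil serine protease, had 3, 4, 3 and 5 peaks and 2 shared peaks, 1 of which spans its start. GZMM, the natural killer cell protease granzyme M, had a single knockdown anti-Flag peak. PCSK4, a proprotein convertase of germ cells, had 2, 3, 3 and 5 peaks, and the membrane protease gene TMPRSS9 had 1, 1, 3 and 9.

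All 19 listed genes for transcription and chromatin had a region, 14 had a shared peak, 13 a knockdown-unique peak and 2 a control-unique peak, against 92.2%, 71.6%, 63.7% and 13.7% of the 102 genes. In sum they held 45 control anti-ETO, 90 control anti-Flag, 86 knockdown anti-ETO and 136 knockdown anti-Flag peaks. TCF3 encodes the E proteins E12 and E47. It had 3, 6, 7 and 8 peaks, with 3 shared peaks, 2 at its 5′ end (chr19:1650373-1652246 and chr19:1652651-1653395) and 1 at its 3′ end, and 2 knockdown-unique peaks in its body. DOT1L, the histone H3 lysine methyltransferase that MLL-rearranged leukaemias depend on, had 4, 7, 7 and 6 peaks, 3 shared, 2 knockdown-unique and 1 control-unique. MBD3, a subunit of the NuRD corepressor complex, had 3 peaks in each of the 4 lists and only shared peaks.

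ARID3A, a DNA-binding factor of B cells and haematopoietic progenitors, had 3, 8, 7 and 20 peaks, and 9 of its 20 regions were called by knockdown anti-Flag alone. KLF16, a zinc-finger factor of the KLF family, held the widest region of the stretch, 5448 bp (chr19:1860038-1865485), which contains its start and was called in all 4 lists. A second region of 4878 bp lay in the same gene. GADD45B, a stress-induced growth arrest gene, had 38.2% of its body under control anti-ETO and 38.4% under control anti-Flag peaks. After knockdown these values were 87.2% and 62.8%. All 3 GADD45B regions were shared, so that this difference in width does not appear in the unique lists.

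MIDN encodes midnolin, which sends short-lived nuclear proteins to the proteasome. Peaks covered 48.9%, 56.0%, 61.8% and 62.5% of its body in control anti-ETO, control anti-Flag, knockdown anti-ETO and knockdown anti-Flag, all in 3 shared regions. SBNO2, a helicase family gene, had 4, 11, 9 and 18 peaks, with 3 shared and 5 knockdown-unique. Among the zinc-finger genes at the far end, ZNF554 had 2 shared peaks and no unique one, whereas ZNF556 and ZNF77 had a knockdown-unique peak and no shared one. TLE6, a Groucho family gene, had 1, 1, 2 and 9 peaks, and knockdown anti-Flag alone called 7 of its 9 regions.

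The 9 genes of RNA processing and translation all had a region, 7 with a shared, 6 with a knockdown-unique and 1 with a control-unique peak. Among the 102 genes the shares were 92.2%, 71.6%, 63.7% and 13.7%. PTBP1, a splicing repressor, had 1 shared peak at its start and no unique one within 1 kb. The widest knockdown-unique peak of the stretch, 3836 bp (chr19:792114-795949), lay 1503 bp upstream of PTBP1, outside every protein-coding gene. Control anti-Flag had 2 peaks within it and control anti-ETO none. CIRBP, a cold-induced RNA-binding protein gene, shares a region of 5107 bp with FAM174C (chr19:1272247-1277353, called in all 4 lists). Peaks covered 24.4% of CIRBP in control anti-ETO, 36.0% in control anti-Flag, 58.4% in knockdown anti-ETO and 54.8% in knockdown anti-Flag. RPS15, a ribosomal protein gene, had no control anti-Flag peak and 1 knockdown-unique peak.

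All 7 genes of mitochondria and redox control had a region (92.2% of the 102 genes), and 6 had a shared peak (71.6%). A knockdown-unique peak lay at 2 of these genes (63.7%) and a control-unique peak at 2 of them (13.7%), which was not tested. Their summed peaks were 17, 21, 20 and 22 in control anti-ETO, control anti-Flag, knockdown anti-ETO and knockdown anti-Flag, the narrowest spread of the 7 gene lists. GPX4, the peroxidase that removes lipid peroxides, had 5, 6, 3 and 4 peaks. ATP5F1D, an ATP synthase subunit gene, had 38.3%, 69.1%, 66.0% and 61.2% of its body under peaks. NDUFS7, a complex I subunit gene, had a control-unique peak (chr19:1382969-1383292) and a knockdown-unique peak (chr19:1383611-1384117) next to each other at its start. Knockdown anti-ETO had also called the first of them, and control anti-Flag the second. TIMM13, an import chaperone gene, had 1 control peak with each antibody, no knockdown peak and a control-unique call that it shares with LMNB2.

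Among the 10 kinase and signalling genes 7 had a region (92.2% of the 102 genes did), and SHC2, PLK5 and DIRAS1 had none. A shared peak lay at 6 (71.6%), a knockdown-unique peak at 7 (63.7%) and a control-unique peak at 2 (13.7%). GNG7, a G-protein gamma subunit gene and the longest of the stretch, had 39 regions, 10 shared peaks, 3 knockdown-unique and 2 control-unique peaks. Its 13, 19, 19 and 33 peaks covered 3.44%, 5.84%, 5.91% and 8.10% of its body. STK11, the LKB1 tumour suppressor kinase gene, had 4, 8, 8 and 13 peaks, with 4 shared and 3 knockdown-unique peaks. KISS1R, the kisspeptin receptor gene, had 7, 6, 6 and 7 peaks and 69.3% of its body under a peak of any list. EFNA2, an ephrin gene, had no shared peak, 2 knockdown-unique and 1 control-unique.

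The broad list of cytoskeleton, adhesion and lipid transport held ARHGAP45, CNN2, BSG, MADCAM1, ABCA7, ATP8B3, AP3D1 and LMNB2, not all of them blood cell genes. All 8 had a shared peak (71.6% of the 102 genes), 7 a knockdown-unique (63.7%) and 4 a control-unique one (13.7%). ABCA7, a lipid transporter gene, had 6, 13, 12 and 17 peaks, 6 shared and 5 knockdown-unique, and its start lay in a region of 4294 bp that reaches into CNN2, a calponin gene. BSG, which encodes basigin, had 4 shared peaks and 1 knockdown-unique.

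All 7 neuronal genes had a region (92.2% of the 102 genes). Of these, 5 had a shared (71.6%) and 6 a knockdown-unique peak (63.7%), and 0 had a control-unique peak (13.7%). PALM, which encodes the membrane protein paralemmin, had 0 control anti-ETO, 10 control anti-Flag, 6 knockdown anti-ETO and 14 knockdown anti-Flag peaks. All 5 of its derived peaks were knockdown-unique, and control anti-Flag had called 4 of the 5. HCN2, a pacemaker channel gene, had 4, 8, 5 and 10 peaks. PLPPR3, a phospholipid phosphatase-related gene of neurons, had peaks with anti-Flag only, 3 in control and 5 after knockdown. Median coverage of the gene body by any list was 19.9% for the neuronal genes and 15.9% over all 102 genes. It was 24.7% for mitochondria and redox, 23.01% for the proteases and 20.6% for cytoskeleton, adhesion and lipid transport. For kinases and signalling it was 18.7%, for transcription and chromatin 11.1% and for RNA processing and translation 10.3%.

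**Figure D2:**
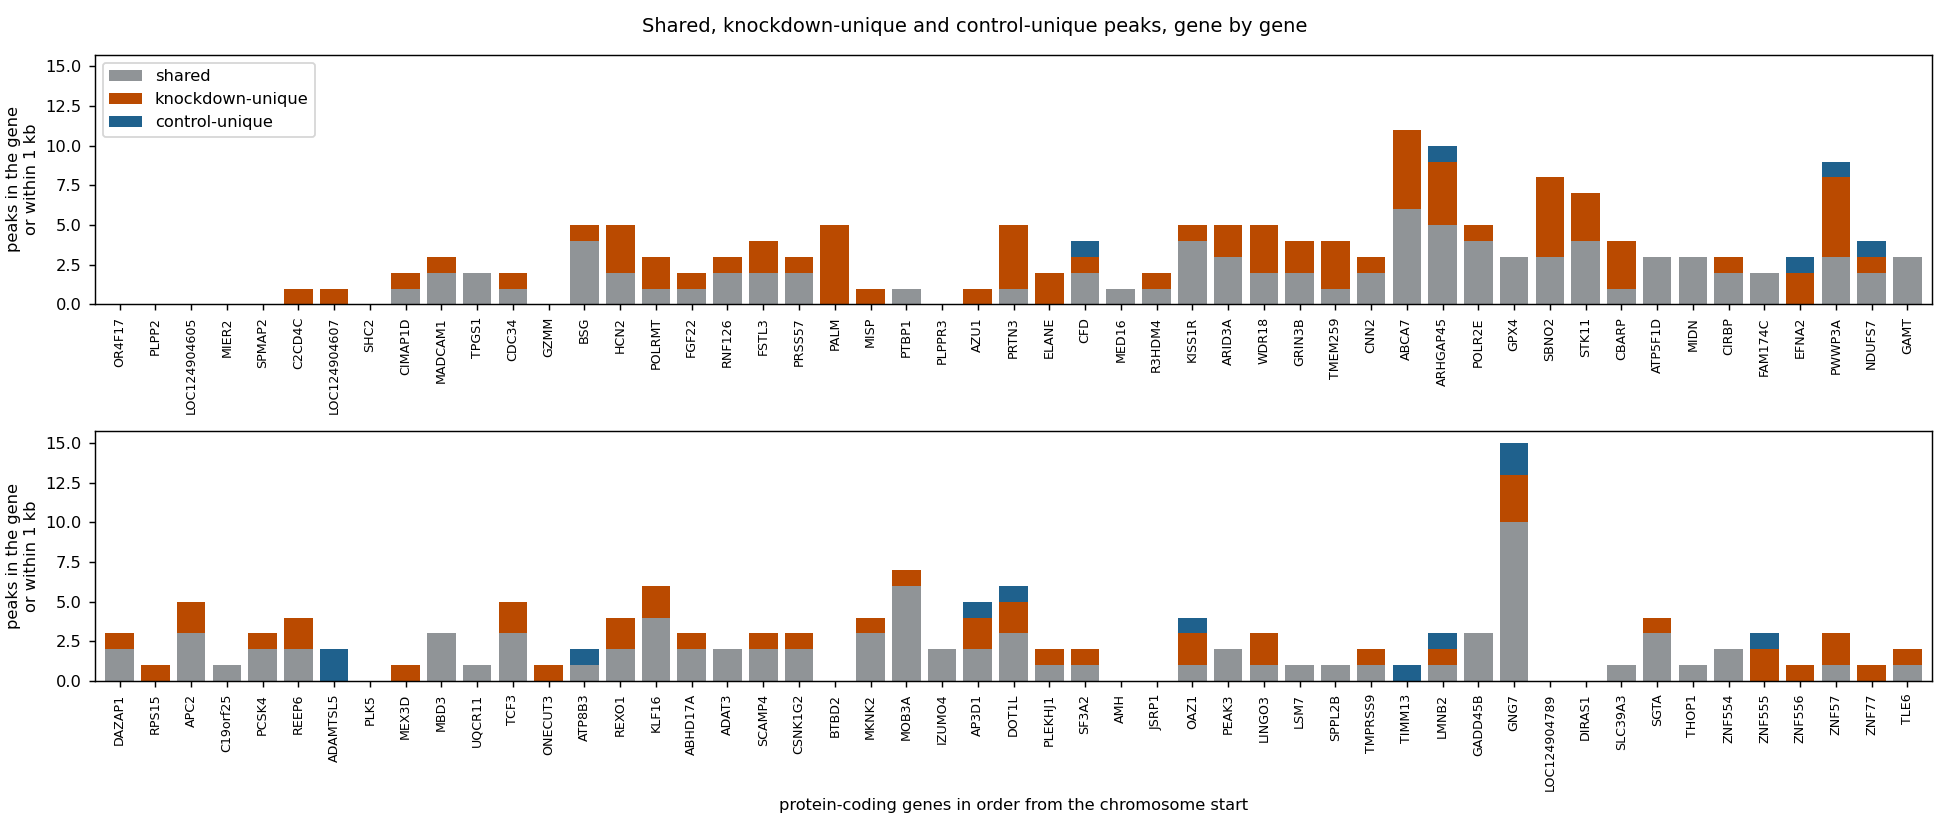
Numbers of shared, knockdown-unique and control-unique peaks in each of the 102 protein-coding genes or within 1 kb, stacked, in order from the chromosome start. GNG7 carries the most shared peaks (10), PALM, ABCA7, SBNO2 and PWWP3A carry 5 knockdown-unique peaks each, and control-unique peaks are seen at 14 genes.

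A knockdown-unique peak with no shared or control-unique peak marked 11 genes: C2CD4C, LOC124904607, PALM, MISP, AZU1, ELANE, RPS15, MEX3D, ONECUT3, ZNF556 and ZNF77. Shared peaks with no unique peak marked 20, among them PTBP1, GPX4, MIDN, MBD3 and GADD45B. Only ADAMTSL5 and TIMM13 had control-unique peaks and no other derived peak. These gene counts were not made over all genes or over the rest of chromosome 19, so they describe the stretch only. Neighbouring and overlapping genes can count the same peak, as C2CD4C and LOC124904607 do. Among the microRNA genes, MIR6789 lay under a region of all 4 lists and MIR7850 under one of knockdown anti-Flag alone.

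The most frequent class among the 784 regions was knockdown anti-Flag alone, with 272 regions or 34.7% (22.3% in the whole series, and 30.4% on the rest of chromosome 19). Its 95% Wilson interval, for counting error over regions only, was 31.4% to 38.1%. All 4 lists had called 174 regions, or 22.2% (24.8%). Another 112, or 14.3% (7.29%), had every call except control anti-ETO, and these are the regions that the control anti-ETO list alone kept from being called throughout. Knockdown alone, by either antibody, had called 358 regions (45.7% against 37.9% in the whole series and 45.6% on the rest of chromosome 19), and control alone 63 (8.04% against 13.4%). Knockdown by both antibodies gave 55 (7.02% against 5.21%, and 7.24% on the rest of chromosome 19) and knockdown anti-ETO alone 31 (3.95% against 10.3%). Anti-Flag in both conditions, without anti-ETO, gave 50 (6.38% against 3.77%), and control anti-Flag alone gave 58 (7.40% against 10.2%). Regions missing only the knockdown anti-Flag call numbered 10 (1.28% against 6.49%), and control anti-Flag with knockdown anti-ETO gave 12 (1.53% against 3.75%). Control anti-ETO called 0 regions by itself (1.4% in the whole series) and 5 with control anti-Flag alone (0.64% against 1.76%). It shared 3 with both knockdown lists (0.38% against 0.75%), 1 with knockdown anti-ETO alone (0.13% against 1.63%), 1 with knockdown anti-Flag alone (0.13% against 0.0393%) and 0 with both anti-Flag lists (0.267%). A control anti-ETO peak in the stretch was thus seldom outside the other lists. Median width was 1329 bp for regions of all 4 lists, 699 bp for those without control anti-ETO and 290 bp for those of knockdown anti-Flag alone.

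**Figure D3:**
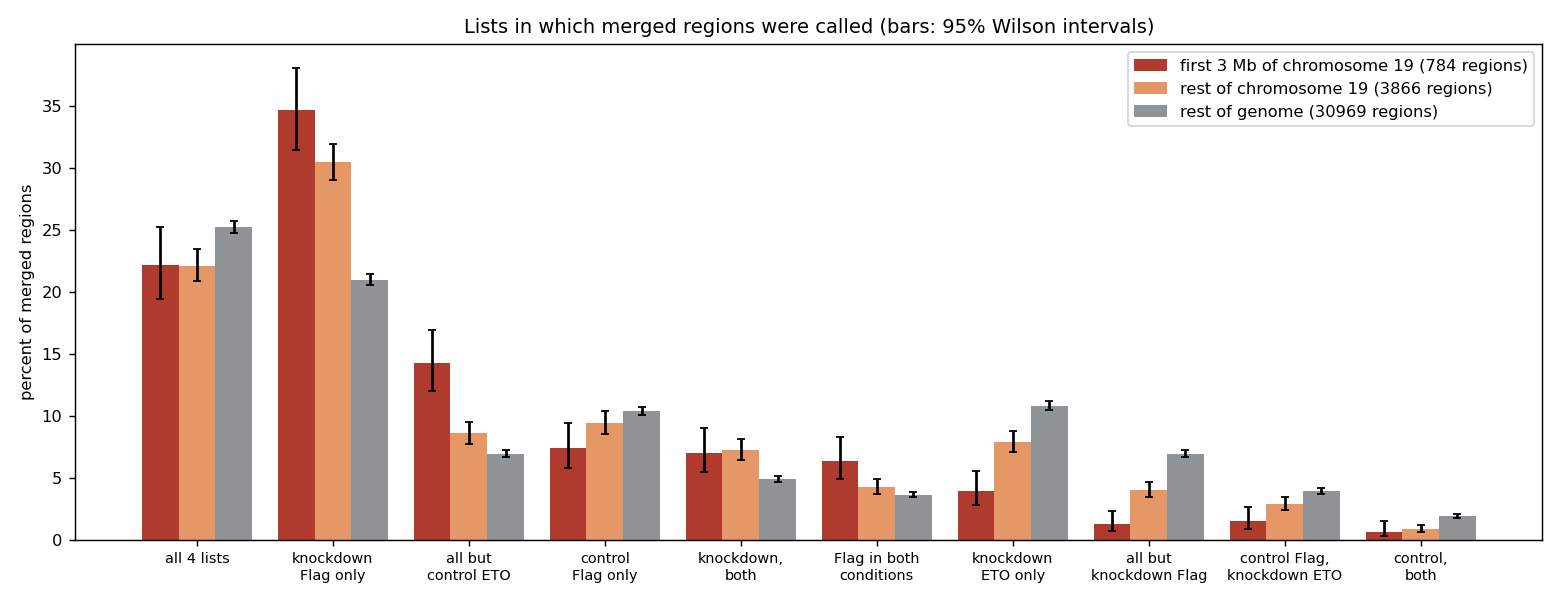
Percent of merged regions in each of 10 combinations of the 4 lists, for the first 3 Mb of chromosome 19, the rest of chromosome 19 and the rest of the genome, with 95% Wilson intervals for counting error only. Regions called by knockdown anti-Flag alone (34.7%) and by all but control anti-ETO (14.3%) take larger shares in the stretch than in the rest of the genome. On the rest of chromosome 19 these shares are 30.4% and 8.59%.

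Most peaks of a shorter list met a peak of the longer one. Of 229 control anti-ETO peaks, 223 overlapped a control anti-Flag peak, or 97.4% (89.6% in the whole series), and 223 overlapped a knockdown anti-ETO peak (97.4% against 91%). Of 446 knockdown anti-ETO peaks, 85.9% overlapped a knockdown anti-Flag peak (63.2%). Of 492 control anti-Flag peaks, 81.1% overlapped a knockdown anti-Flag peak (62.1%). Read from the longer list the shares were lower. Control anti-Flag peaks overlapped control anti-ETO in 46.3% (57.5%), and knockdown anti-ETO peaks overlapped control anti-ETO in 46.4% (55.7%). Knockdown anti-Flag peaks overlapped control anti-Flag in 53.3% (59.2%) and knockdown anti-ETO in 55.3% (63.1%). Peaks that cover more of a stretch meet by position more often, and the part of this in the overlaps was not tested.

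Of the 355 derived peaks of the stretch, 48.7% were shared, 47.0% knockdown-unique (95% Wilson interval 41.9% to 52.2%) and 4.23% control-unique (2.58% to 6.85%). In the whole series these shares were 53.2%, 28.1% and 18.6%, and on the rest of chromosome 19 they were 50.3%, 37.5% and 12.2%. Control anti-Flag alone had also called 110 of the 167 knockdown-unique peaks, or 65.9% (55.1%), and control anti-ETO alone had called 3 (5.83% of the whole list). Each control list had a call at 1 (0.996% of the whole list), the peak over the PRTN3 start. Neither control list had a call at 53, or 31.7% (38.1%). Among the 15 control-unique peaks, knockdown anti-ETO alone had called 10 (74.7% of the whole list) and knockdown anti-Flag 0, with or without anti-ETO (1.99% and 3.17% of the whole list). Neither knockdown list had called the other 5 (20.2% of the whole list), at EFNA2, PWWP3A, TIMM13 with LMNB2, GNG7 and upstream of APC2. The control-unique peaks were narrow, with a median of 324 bp against 473 bp on the other chromosomes. The knockdown-unique ones had a median of 581 bp against 516 bp.

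These counts move with the lengths of the lists. With all 4 lists shortened to 14264 peaks by width, the stretch held 229 control anti-ETO, 285 control anti-Flag, 286 knockdown anti-ETO and 437 knockdown anti-Flag peaks. The derived lists rebuilt from these gave 145 shared, 87 knockdown-unique and 17 control-unique peaks in the stretch. In the whole series they gave 6314, 2114 and 3247. When the knockdown lists alone were cut to the lengths of the control lists, the stretch gave 96 knockdown-unique and 32 control-unique peaks.

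**Figure D4:**
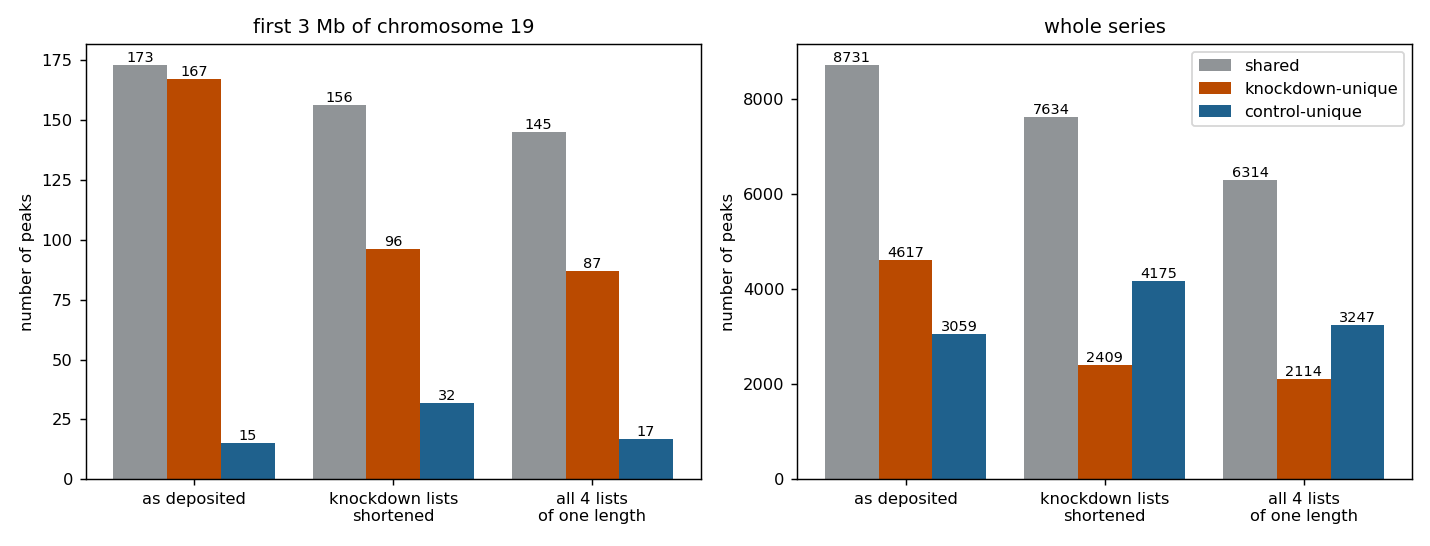
Numbers of shared, knockdown-unique and control-unique peaks in the first 3 Mb of chromosome 19 (left) and in the whole series (right), with the lists as deposited, with the knockdown lists cut to the length of their control lists, and with all 4 lists at one length. In the stretch the knockdown-unique column is above the control-unique one at each length (87 against 17 at one length), and in the whole series it is below at one length (2114 against 3247).

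At the starts of genes the stretch was well covered. Of its 99 start sites, from 84 genes, 36 lay under a control anti-ETO peak, or 36.4% (18.8% in the whole series), and 32 under a control anti-Flag peak (32.3% against 16.6%). After knockdown 48 lay under an anti-ETO peak (48.5% against 23.2%) and 32 under an anti-Flag peak (32.3% against 10.5%). Any list covered 50.5% (26.4%), and all 4 lists covered 25.3% (8.64%). On the rest of chromosome 19 the 4 lists covered 24.2%, 22.7%, 31.6% and 17.3% of start sites, in the same order. Any list covered 35.7% there, and all 4 lists covered 13.0%. Within 1 kb, 86.9% of the start sites of the stretch had a knockdown anti-Flag peak (29.3%, and 47.3% on the rest of chromosome 19). The genes with a start under all 4 lists included CFD, KLF16, MIDN, BSG, CNN2, ARHGAP45, SBNO2 and LMNB2.

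The lists differed in how they lay around the start. In the stretch the share of start sites under a peak was highest upstream, at 250 bp before the start for anti-ETO in control (55.6%) and knockdown (62.6%), at 300 bp for control anti-Flag (53.5%) and at 350 bp for knockdown anti-Flag (58.6%). Each list also had a lower maximum 50 to 200 bp after the start. These were 48.5% for control anti-ETO, 49.5% for control anti-Flag, 60.6% for knockdown anti-ETO and 45.5% for knockdown anti-Flag. At the other promoters the share was highest 100 to 150 bp after the start, at 17.0% to 29.3%. Their upstream maximum, 250 to 300 bp before the start, was 14.4% to 25.7%. The difference in position was not tested. From 1 to 3 kb away on either side, control anti-ETO peaks covered on average 11.3% of positions, control anti-Flag 21.4%, knockdown anti-ETO 23.7% and knockdown anti-Flag 26.6%. On the same measure the other promoters of the genome had 2.08% to 4.06%.

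**Figure D5:**
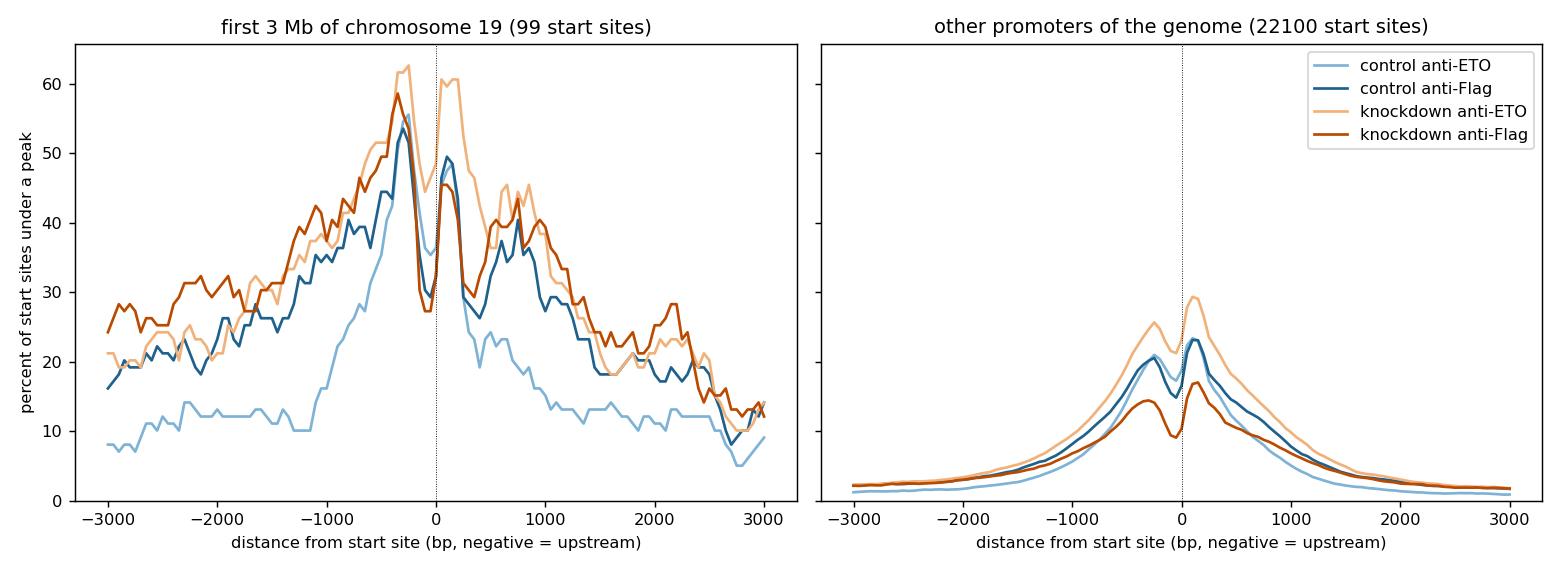
Percent of start sites under a peak at each distance from the start (negative is upstream), for 99 start sites of the stretch (left) and 22100 elsewhere (right), with 1 line for each of the 4 lists. In the stretch all lines stand higher and peak before the start, with a lower maximum after it. They stay above those of other promoters out to 3 kb, with control anti-ETO (55.6% at its highest) falling off soonest.

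Most regions nevertheless lay away from starts. Of the 784, 187 came within 1 kb of either end of a protein-coding gene, or 23.9% (33.9%), 355 lay deeper inside a gene (45.3% against 38.7%) and 242 outside genes (30.9% against 27.4%). Within 1 kb of a start site lay 126 regions, or 16.1% (28.2%). This was so for 39.7% of the regions of all 4 lists (49.7% in the whole series) and for 3.31% of those called by knockdown anti-Flag alone (4.53%). Of the shared peaks 68 lay within 1 kb of a start, or 39.3% (49.9%), and 40 lay over one, or 23.1% (33.8%). Of the knockdown-unique peaks 30 lay within 1 kb of a start, or 18.0% (22.4%), and 3 over one, or 1.80% (6.13%). Of the 15 control-unique peaks 5 lay within 1 kb (33.3% against 44.5%) and 0 over a start (17.4% of the whole list). The 3 knockdown-unique peaks over an annotated start were those at PRTN3, R3HDM4 and NDUFS7. Genes without an annotated start, such as ELANE, were not assessed. R3HDM4, whose product carries an R3H nucleic acid-binding domain, was the one of the 3 whose knockdown-unique peak (chr19:912793-914416) overlapped no control peak.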

How the data were processed

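The authors deposited lists of peak positions in BED format (chromosome, start and end), with no header and no measured value per peak. Per the submitters' processing notes, fastp 0.19.5, Bowtie2 2.3.5, MACS2 2.2.5 and HOMER 4.8 were used, with the builds hg38 and sacCer3. The threshold, the use of IgG and the treatment of replicates are not given in the sources used here, and each can lengthen or shorten a list. The IgG libraries and the 2 further lists of peaks called by both antibodies were not analysed here.

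Starts were converted to count from 1. Peaks overlapping by at least 1 bp were called shared between lists, in Python 3.11.15 with numpy 2.4.6 and pandas 2.3.3. The authors' derived lists were rebuilt with an overlap of at least 100 bp, between antibodies and then between conditions. This gave all 173 shared, 15 control-unique and 167 knockdown-unique intervals of the stretch. In the whole series it gave 8740, 3059 and 4625 peaks, against 8731, 3059 and 4617 in the authors' lists. Genes and start sites are those of RefSeq GRCh38.p14, and 41 of 144 chromosome 19 entries below the limit were left out because they lie on other scaffolds. TLE2 crosses the limit and is not among the 102 genes. 18 of these genes had no entry in the promoter table. A gene holds a peak in its body or within 1 kb.

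The stretch, its members and the 7 gene lists were chosen with earlier results of these data known, and the promoter comparison, motif letters and list-length counts are descriptions. Every protein-coding gene of the stretch could be named, the listed genes in depth, with those of most peaks, widest regions or most coverage. Shares carry 95% Wilson intervals in the plots, for counting error only. No test was run, since the lists give no value per library. The interval functions were tested on simulated lists. Alternatives were other overlaps, merging gaps, boundaries, an end at 2000000, wider peaks and equal list lengths.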

Additional observations from a re-analysis of the deposited data

How the results depend on the processing

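Of 38 alternative values for 10 results, 22 stayed within the limits used and 16 moved beyond them. The limit was the 95% counting interval of a share, and a factor of 1.5 for the counts of regions and of genes. Requiring 50% of both peaks to overlap moved the share of control anti-ETO peaks with control anti-Flag to 68.1%, with knockdown anti-ETO to 55.0%, of knockdown anti-ETO with knockdown anti-Flag to 59.4%, and of control with knockdown anti-Flag to 51.0%. The share of knockdown-unique peaks with a control anti-Flag call alone became 37.1%. With all 4 lists at one length the first 2 of these shares were 82.5% and 86.9%, the last was 47.1%, regions of all 4 lists made up 29.9% and knockdown-unique peaks 34.9% of the derived peaks. Shortening only the knockdown lists gave 33.8%. Joining peaks up to 500 bp apart gave 25.3% of regions in all 4 lists. The wider 50% of each list left 428 regions, 31.8% of them within 1 kb of a gene boundary. That share was 39.2% within 2.5 kb and 19.1% when the region's centre was counted. Rebuilding the derived lists with an overlap of 1 bp was chosen after seeing the data. No paired analysis was possible because the lists name no replicate. The lists carry no read counts, so the depth behind a call, and whether a call missing from control is an absence, cannot be given.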
